A study of Mus musculus with 11 samples.

Results

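Collagens are extracellular proteins built from chains that wind into a triple helix, and the mouse genome holds a gene for each chain. The rows of the expression table whose symbol is Col, a number, the letter a and a number were taken as the collagen genes: 43 of 20893 rows. By what is known of their products, 11 were fibrillar, 6 were chains of type IV and 26 were other collagens. RNA was read in 11 livers of C57BL/6 mice, 1 library per liver, and all mice carried the ROSA26-rtTA-IRES-EGFP allele and ate doxycycline food. The 4 control livers were labelled WT and had received doxycycline for 7 days. The induced livers carried tetYAP, with 4 livers taken after 3 days and 3 livers after 7 days of doxycycline. In the study's cross, Cre was driven by the albumin promoter, which is active in hepatocytes, and allowed expression of the rtTA transactivator, which with doxycycline switches on a constitutively active YAP from a transgene named for Col1A1; the labels do not list the Cre allele of each mouse. Each level below is an eRPKM, the authors' reads on exons scaled to gene length and library size. The tissue label fitted the hepatocyte markers, whose summed level was 963.1 to 3938 eRPKM.

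Fibrillar collagens (types I, II, III, V, XI, XXIV and XXVII) make the cables of connective tissue and are the main protein of liver scars, where hepatic stellate cells and portal fibroblasts are the textbook sources. Type IV collagen makes the sheet-like network of basement membranes. Its chains are encoded by gene pairs that lie head to head, and they assemble into a few fixed trimers: one of Col4a1 and Col4a2 chains found in nearly every basement membrane, one of Col4a3, Col4a4 and Col4a5 chains known from kidney and lung, and one of Col4a5 and Col4a6 chains. Among the others are the FACIT collagens, which sit on fibrils, the multiplexins of basement membrane zones, type VI microfibrils and membrane-spanning collagens. YAP is a transcriptional co-activator that binds DNA through TEAD factors.

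Across the libraries, 1251396 to 5941357 reads fell on genes, the fewest in control liver 4. All 3 livers of 7 days were female by Xist against Ddx3y, whereas the control and 3-day groups each held 2 females and 2 males, and the 7-day livers were also the deepest apart from control liver 2, so that sex and depth are in part tied to the 7-day group. The YAP target gene Cyr61 was 5.76 to 14.3 eRPKM in control, 26.8 to 53.4 in 3-day and 90.5 to 91.3 in 7-day livers, while reads on the endogenous Yap1 gene overlapped between the groups (13.9 to 21.1, 15.3 to 19.3 and 17.4 to 19.0 eRPKM). A pair of libraries stood apart in collagen genes, control liver 4 and 3-day liver 3, and results that rest on them are given with and without them. The labels of 3-day livers 1 and 4 and 7-day liver 2 end in the suffix MF, whose meaning is not given. At 3 days some genes split along it, such as Col4a1 (21.0 and 22.0 eRPKM with it, 8.95 and 8.11 without) and Col5a2 (4.27 and 3.72, 1.53 and 1.40). Col18a1 did not (100.2 and 109.7, 104.8 and 124.7). The suffix served as a covariate in an alternative fit.

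Most collagen genes were low in liver RNA. A total of 20 genes reached 0.5 eRPKM in every liver, 6 stayed under it in every liver, and 28 reached it in at least 3 livers and were tested. Of the 15 that were not tested, 2 were fibrillar (Col11a1 and Col24a1), 1 was a type IV chain (Col4a6), and 12 were others (Col6a4, Col6a5, Col6a6, Col7a1, Col9a1, Col9a2, Col9a3, Col19a1, Col22a1, Col25a1, Col26a1 and Col28a1). None of the 15 passed 1.25 eRPKM or 39 reads in any liver, and 11 of them had their highest level in 7-day liver 2, where 19280 genes had a read, against 14630 to 18036 in the other livers. Col6a3, the long chain of type VI collagen, was not analysed here. At the other end, Col18a1, a multiplexin whose end fragment is endostatin, held 120.8 eRPKM on average and made up 39.4 to 58.1% of the summed collagen level of a liver. Col1a1 followed at 19.6, Col4a1 at 17.3, Col14a1 at 16.0 and Col3a1 at 13.4 eRPKM.

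After 7 days of YAP induction 4 type IV chains and the FACIT collagen Col12a1 rose and the multiplexin Col15a1 fell, and no fibrillar collagen passed the test. In the test across 14244 genes (limma on log2(eRPKM + 0.5); adjusted p under 0.01 and a log2 fold change beyond 0.5), 6 of the 28 tested collagens were higher than in control and 1 was lower. One of the 6, Col23a1, entered the test through the 7-day livers alone, where it was high, so its call is given as a description. Outside the 7-day group, Col4a4 reached 0.5 eRPKM only in control liver 1 (0.575) and 3-day liver 3 (2.13). It too passed the filter only with the 7-day livers, so its call and its place in the count by class are likewise a description. Of all tested genes, 18.0% were called higher and 5.77% lower in the same comparison, and the median gene had a log2 fold change of 0.26. By class, 4 of 5 tested type IV genes were called higher, 0 of 9 fibrillar genes in either direction, and 2 of 14 others higher with 1 lower. With log2 depth in the model 1 type IV gene kept its call (Col4a5), and in female livers alone 2 did (Col4a4 and Col4a5). The Col15a1 call was lost in both of these fits. The median log2 fold change was 2.20 for the type IV genes, -0.13 for the fibrillar genes and 0.03 for the others. The first is the value of Col4a4, so it too is a description. The second is that of Col1a2, which became 0.28 without control liver 4 and 0.68 with log2 depth. With depth Col1a1, Col3a1 and Col5a2 were 0.75, 0.76 and 0.64, whereas Col5a1, Col5a3 and Col27a1 were -0.07, -0.70 and -0.57. Col4a1 and Col4a2 were then 0.76 and 0.73, and Col4a3, Col4a4 and Col4a5 were 1.75, 1.95 and 2.53. At an unadjusted p under 0.05 the fibrillar class held 2 genes, Col11a2 upward and Col5a3 downward. Col11a2 also passed the filter only with the 7-day livers. In whole-liver RNA, more cells of a type and more RNA per cell cannot be told apart. With the libraries rescaled so that the median gene moved by 0.03 (median-ratio size factors), 4 collagens were called higher and 2 lower, against 1951 and 1254 of all genes in place of 2561 and 822.

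At 3 days no collagen gene was called in either direction by limma, where 0.0421% of all genes were called higher and none lower, and limma-voom on the reads called none. At an unadjusted p under 0.05 there were 2, Col10a1 and Col15a1, both with lower means than in control. The median log2 fold change of the 28 genes was -0.15 at 3 days, beside 0.02 over all genes. Between 3 and 7 days, 5 collagens were called higher and 1 lower, where 14.0% and 5.31% of all genes were called. The 5 were Col4a2, Col4a3, Col4a4, Col4a5 and Col12a1, and the 1 was Col14a1. The 3-day and the control livers are each compared with the same 7-day livers, so these lists are not independent of each other.

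**Figure D1:**
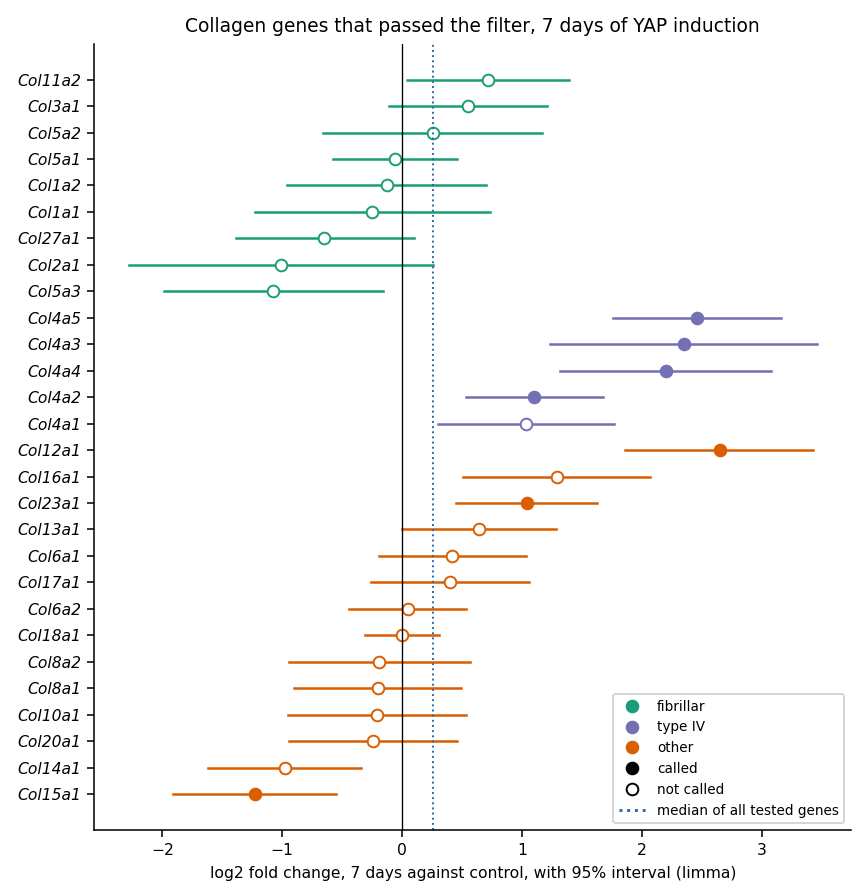
Log2 fold change of the 28 tested collagen genes at 7 days against control (horizontal axis, with the 95% interval from limma), grouped by class; filled points passed the test and the dotted line is the median of all tested genes, 0.26. The 5 type IV genes all lie at 1.03 or above, while the 9 fibrillar genes run from -1.08 to 0.72 with no filled point.

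Col4a5, whose chain takes part in both of the rarer type IV trimers, had the largest log2 fold change of the type IV genes. By the ratio of 7-day to control means, Col4a4 was ahead, at 9.02 against 7.22 for Col4a5. The level of Col4a5 was 1.96, 1.69, 1.55 and 2.39 eRPKM in the control livers and 1.01, 0.784, 1.18 and 1.71 at 3 days. In the 7-day livers it was 8.10, 21.8 and 11.2 eRPKM. The 7-day values did not overlap the others, and 7-day liver 2 was the highest. The log2 fold change was 2.46 ± 0.32 (SE) against control (5.50-fold, adjusted p = 9.7e-05, limma) and 3.00 ± 0.32 against 3 days (adjusted p = 3.5e-05), and without 7-day liver 2 it was 2.07 against control (adjusted p = 0.00052). At 3 days the value was -0.54 ± 0.30 (adjusted p = 0.501). Because Col4a5 lies on the X chromosome (chrX:137909928-138123778, + strand, mm9) and all 7-day livers were female, the fit of female livers alone was read as well: there it was 2.63 ± 0.39 (adjusted p = 0.00163).

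Col4a3 and Col4a4, the partners of Col4a5 in the kidney-type trimer, were both called higher at 7 days. Col4a4 was near the 0.5 eRPKM limit in control livers and Col4a3 was above it in 3 of 4. Without the 7-day livers Col4a4 would not have passed the filter. A difference was thus in part built into its entry, and its tests are given as a description. Col4a3 was 1.10, 1.59, 0.849 and 0.389 eRPKM in control livers and 7.58, 5.53 and 7.15 after 7 days. Col4a4 was 0.575, 0.407, 0.413 and 0.199 eRPKM in control livers, the last from 2 reads, and 3.92, 3.20 and 3.65 after 7 days. Neither gene overlapped between control and 7 days. On the log2 scale the changes were 2.35 ± 0.52 for Col4a3 (adjusted p = 0.00341, limma) and 2.20 ± 0.41 for Col4a4 (adjusted p = 0.00115), and the exact permutation p was 0.0286 for each, the smallest that 4 against 3 livers allow. Since 0.5 was added to each eRPKM before the logarithm, these values understate the ratio of the means, which was 6.87 for Col4a3 and 9.02 for Col4a4. The 7-day livers held 3.94 times and 4.90 times the 3-day mean, with log2 fold changes of 2.12 (adjusted p = 0.00759) and 1.98 (adjusted p = 0.00297). With log2 depth in the model both calls against control were lost (1.75 for Col4a3, adjusted p = 0.0628, and 1.95 for Col4a4, adjusted p = 0.0201). Col4a3 also lost its call against control without control liver 4 or any 1 of the 7-day livers (adjusted p = 0.0107 to 0.0161) and in female livers alone (2.10, adjusted p = 0.0246), whereas Col4a4 kept its call in each of these fits. With control liver 4 and 3-day liver 3 both left out, the values were 2.12 and 2.09 (adjusted p = 0.00011 for each).

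The 3-day livers disagreed on this pair. Col4a3 was 0.584, 0.590 and 0.661 eRPKM in 3-day livers 1, 2 and 4 but 5.03 in 3-day liver 3, where 190 reads lay on it. Col4a4 was 0.327, 0.137 and 0.338 eRPKM in the same 3 livers and 2.13 in liver 3, from 63 reads. Col4a5 was 1.18 eRPKM in that liver, within the range of its group. The log2 fold change of 3 days against control was 0.23 for Col4a3 and 0.22 for Col4a4 with liver 3, and -0.35 and -0.22 without it, and no value passed the test. Against 3 days, the 7-day values without liver 3 were 2.69 for Col4a3 and 2.42 for Col4a4. The Col4a3 call against 3 days was lost under 16 of 27 alternatives, among them without control liver 1 or 3 or any 1 of the other 3-day or 7-day livers (adjusted p = 0.0112 to 0.0314), with depth (1.68, adjusted p = 0.0489) and in female livers (1.51, adjusted p = 0.0899). That of Col4a4 was lost under 7 of 27, among them without any 1 of the 7-day livers (adjusted p = 0.0108 to 0.0143), with depth (1.79, adjusted p = 0.0193) and in female livers (1.46, adjusted p = 0.0480). Through all 11 livers the ratio of Col4a3 to Col4a4 stayed between 1.73 and 4.30, and it was 1.73 to 1.96 at 7 days.

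Col4a1 and Col4a2, the common chains of basement membranes, were 2.04 and 2.16 times their control means at 7 days. Col4a1 was 14.5, 15.7, 13.1 and 8.31 eRPKM in control, 21.0, 8.95, 8.11 and 22.0 at 3 days, and 23.5, 26.7 and 28.5 at 7 days. Col4a2 was 8.25, 8.42, 8.66 and 4.35 eRPKM in control, 7.20, 5.87, 6.44 and 10.7 at 3 days, and 13.7, 17.9 and 16.6 at 7 days. Both genes were higher in each 7-day liver than in any other liver. Col4a2 passed the test at 1.10 ± 0.27 (adjusted p = 0.00594, limma), and Col4a1 missed it at 1.03 ± 0.34 (adjusted p = 0.0296). Against 3 days the values were 1.07 ± 0.27 for Col4a2 (adjusted p = 0.00853) and 0.92 ± 0.34 for Col4a1 (adjusted p = 0.0503). The Col4a2 call against 3 days was lost under 16 of 27 alternatives, among them without control liver 1, 2 or 3, 3-day liver 1, 2 or 3 or any 1 of the 7-day livers (adjusted p = 0.0112 to 0.0408), with depth (adjusted p = 0.0464) and in female livers (adjusted p = 0.0326). Against control, with log2 depth in the model, the Col4a2 call was lost (0.73, adjusted p = 0.0919), in female livers alone (0.86, adjusted p = 0.0306), without any 1 of the 7-day livers (1.02 to 1.21, adjusted p = 0.0133 to 0.0303) and without control liver 1 (1.16, adjusted p = 0.0101). The ratio of Col4a1 to Col4a2 was 1.51 to 1.91 in control, 2.91, 1.53, 1.26 and 2.05 in the 3-day livers, which passed the control range on both sides, and 1.49 to 1.72 at 7 days (7 days against control, exact permutation test on the log2 ratio, p = 0.400, 0.758 after adjustment over the 15 chain ratio tests).

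Col4a6, the last chain, stayed low. It was 0.133, 0.188, 0.108 and 0.103 eRPKM in control livers, 0.0486, 0.0714, 0.106 and 0.0703 at 3 days, and 0.169, 0.566 and 0.195 at 7 days. The highest of these rested on 26 reads in 7-day liver 2, the library with reads on the most genes, and the gene was not tested. Thus 5 of the 6 type IV genes, all those tested, lay above every control liver in each 7-day liver, a position that 36.7% of all tested genes took. Over all collagens 9 genes lay above every control in this way, and 4 lay below every control (Col5a3, Col14a1, Col15a1 and Col27a1), as 13.3% of all tested genes did. Among the 9, Col4a4 and Col23a1 passed the filter only with the 7-day livers, so their place here is a description.

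**Figure D2:**
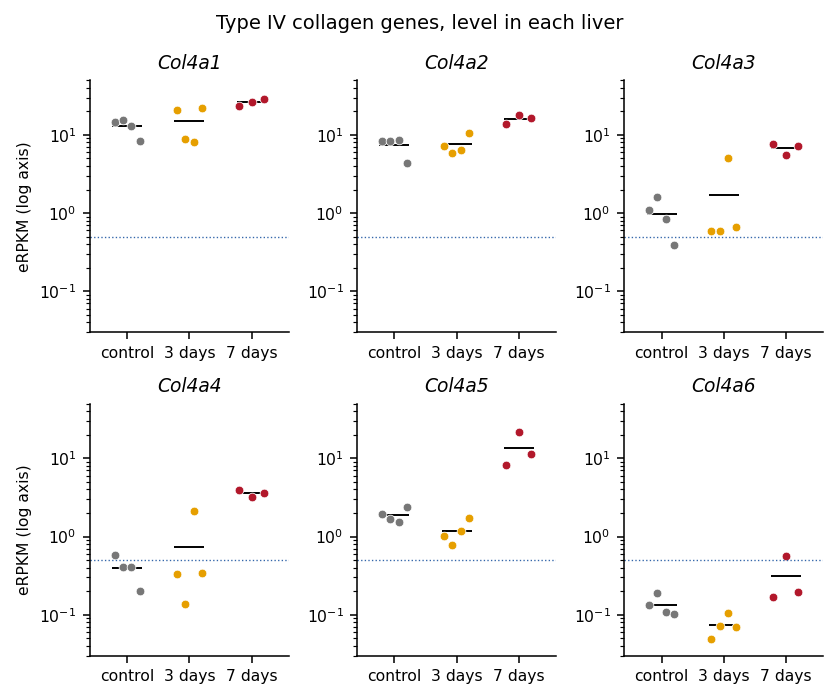
Level of each type IV collagen gene in eRPKM (log axis) in control, 3-day and 7-day livers; points are livers, bars are group means and the dotted line is 0.5 eRPKM. The 7-day points of Col4a1 to Col4a5 lie above all control points, and 3-day liver 3 stands out for Col4a3 (5.03) and Col4a4 (2.13).

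The make-up of type IV RNA changed with these rises. The Col4a3, Col4a4 and Col4a5 genes together gave 13.7, 13.2, 11.4 and 18.9% of the summed type IV eRPKM in control livers. They gave 34.4, 40.4 and 32.7% at 7 days. At 3 days the shares were 6.38, 9.21 and 7.62% in livers 1, 2 and 4 and 36.3% in liver 3, so liver 3 reached the 7-day range through Col4a3 and Col4a4 while the 7-day livers did so through all 3 genes. In control liver 4 the share of 18.9% came mostly from Col4a5 (15.2%). Type IV genes as a whole went from 5.31 to 12.2% of all collagen eRPKM in control livers and 8.41 to 15.5% at 3 days to 21.7 to 24.6% at 7 days. The fibrillar share was 15.9 to 39.7% in control, 17.6 to 27.2% at 3 days and 15.5 to 19.8% at 7 days. These shares were chosen for description after the levels were seen and were not tested.

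**Figure D3:**
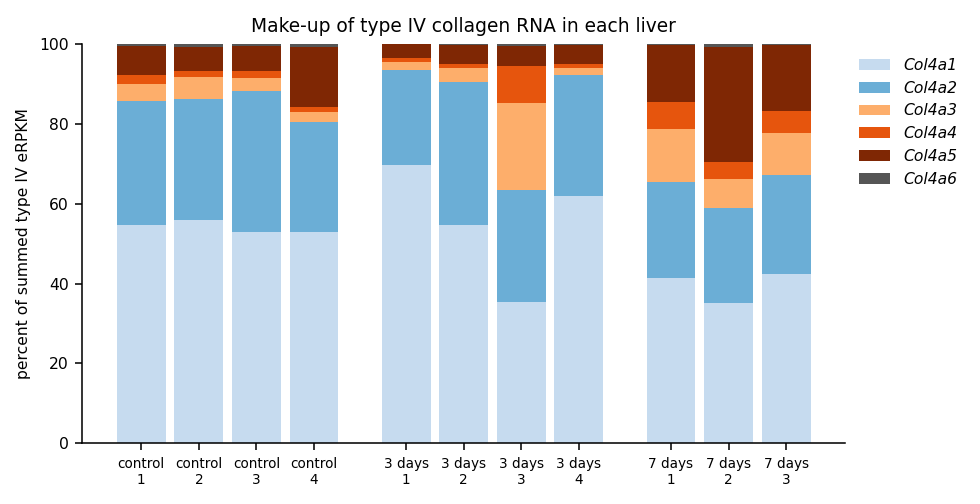
Percent of the summed type IV eRPKM (vertical axis) that each of the 6 genes gave in each of the 11 livers. The Col4a3, Col4a4 and Col4a5 segments add up to 32.7 to 40.4% at 7 days and to 11.4 to 18.9% in control livers.

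In mm9 (GENCODE M1) the type IV pairs lie as neighbours that are read away from each other. Col4a4 (chr1:82447298-82583424, - strand) and Col4a3 (chr1:82583496-82718634, + strand) have gene starts 72 bases apart. Col4a1 (chr8:11198423-11312826, - strand) and Col4a2 (chr8:11312805-11449287, + strand) overlap by 22 bases. Col4a6 (chrX:137599946-137908619, - strand) and Col4a5 start 1309 bases apart. Both genes of the first pair were called higher at 7 days, 1 of the second, and in the third Col4a6 was too low to compare. Reads were counted without strand, so the few bases shared by Col4a1 and Col4a2 could not be assigned to either gene.

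The promoters of Col4a1 and Col4a2 show how closely this pair is packed. RefSeq sequences from 250 bases before to 50 bases after the start, on GRCm38.p6, were found for 34 of the 43 genes. Col4a3, Col12a1 and Col14a1, which are among the 8 genes called in any comparison, have no entry. For Col4a1 (chr8:11312777-11313076, - strand) and Col4a2 (chr8:11312555-11312854, + strand) the capitals mark the 78 bases that both windows share, read on opposite strands. For Col4a4 (chr1:82586800-82587099, - strand) and Col4a5 (chrX:141475169-141475468, + strand) they mark the first 50 transcribed bases.
Col4a1: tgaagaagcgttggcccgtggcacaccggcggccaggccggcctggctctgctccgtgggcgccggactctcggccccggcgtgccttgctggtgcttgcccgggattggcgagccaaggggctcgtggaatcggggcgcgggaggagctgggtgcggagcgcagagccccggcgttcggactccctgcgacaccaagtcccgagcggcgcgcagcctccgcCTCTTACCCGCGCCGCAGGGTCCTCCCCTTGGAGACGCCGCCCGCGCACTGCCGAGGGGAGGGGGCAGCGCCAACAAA
Col4a2: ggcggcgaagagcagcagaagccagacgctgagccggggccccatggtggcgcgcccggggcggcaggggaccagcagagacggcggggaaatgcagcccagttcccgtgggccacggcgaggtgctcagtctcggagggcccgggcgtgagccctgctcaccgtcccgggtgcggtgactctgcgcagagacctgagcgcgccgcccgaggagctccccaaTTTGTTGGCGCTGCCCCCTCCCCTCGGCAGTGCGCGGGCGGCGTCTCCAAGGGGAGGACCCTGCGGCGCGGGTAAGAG
Col4a4: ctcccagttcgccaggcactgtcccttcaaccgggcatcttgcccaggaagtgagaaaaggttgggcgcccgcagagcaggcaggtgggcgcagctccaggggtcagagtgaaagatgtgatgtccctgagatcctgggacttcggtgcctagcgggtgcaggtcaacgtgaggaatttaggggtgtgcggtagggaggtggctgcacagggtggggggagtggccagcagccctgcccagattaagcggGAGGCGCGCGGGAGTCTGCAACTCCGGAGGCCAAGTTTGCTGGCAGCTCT
Col4a5: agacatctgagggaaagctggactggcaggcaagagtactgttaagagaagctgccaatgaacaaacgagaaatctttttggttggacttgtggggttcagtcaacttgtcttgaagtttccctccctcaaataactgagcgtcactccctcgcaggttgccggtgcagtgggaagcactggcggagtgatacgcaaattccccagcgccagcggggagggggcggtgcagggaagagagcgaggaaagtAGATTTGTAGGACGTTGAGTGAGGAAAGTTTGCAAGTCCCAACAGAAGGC

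The core of the TEAD motif was searched as GGAATG or its complement CATTCC, and the AP-1 motif as TGACTCA or its complement TGAGTCA, on both strands; no collagen window held both. Of 37 collagen windows, 5 (13.5%) held the TEAD letters and 1 (2.70%) the AP-1 letters, beside 14.7% and 5.20% of all 32851 windows in the table. None of the 5 called genes with an entry (Col4a2, Col4a4, Col4a5, Col15a1 and Col23a1) held either motif in its window. The TEAD letters were in the windows of Col3a1, Col6a2, Col18a1, Col20a1 and Col4a6, and the AP-1 letters in that of Col6a1. The matches in the 3 better expressed of these genes are given with 15 bases on each side and the motif in capitals, the 2 Col18a1 matches (104 and 54 bases before its start) lying in 1 of its 2 windows. They describe letters in a short window and say nothing of binding there or elsewhere.
Col3a1, chr1:45311355-45311390, + strand: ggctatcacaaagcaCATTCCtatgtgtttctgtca
Col18a1, chr10:77113789-77113824, - strand: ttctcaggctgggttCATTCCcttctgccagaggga
Col18a1, chr10:77113739-77113774, - strand: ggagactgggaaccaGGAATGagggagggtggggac
Col6a1, chr10:76726113-76726149, - strand: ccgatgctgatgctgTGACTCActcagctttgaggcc

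The fibrillar collagens of scar tissue were not called at 7 days. Col1a1 (chr11:94797538-94814356, + strand), the main chain of type I collagen, was 18.8, 10.2, 12.2 and 60.8 eRPKM in control, 21.2, 13.8, 14.6 and 14.6 at 3 days, and 15.3, 15.2 and 18.7 at 7 days. All 7-day values lay inside the control range. Control liver 4 alone was over 3 times any other control, on 368 reads in the shallowest library. Its log2 fold change was -0.25 with a 95% interval of -1.23 to 0.73 (adjusted p = 0.696, limma). It turned to 0.29 without control liver 4, to 0.53 in female livers alone (adjusted p = 0.0678) and to 0.75 with log2 depth in the model (adjusted p = 0.151). The tetYAP mice carry a transgene named for this locus and the control mice do not. Col1a1 shares exon bases with Gm17329 on the other strand, and without strand their reads cannot be told apart.

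Col1a2, the partner chain of type I collagen, followed Col1a1. It was 6.42, 5.13, 6.04 and 19.1 eRPKM in control, 9.35, 4.73, 6.14 and 5.11 at 3 days, and 5.94, 7.20 and 8.64 at 7 days. Again control liver 4 was the highest, and the log2 fold change of -0.13 (95% interval -0.96 to 0.70, adjusted p = 0.814) became 0.28 without it, 0.34 in female livers and 0.68 with depth. The ratio of Col1a1 to Col1a2 was 1.99 to 3.17 in control, 2.26 to 2.91 at 3 days and 2.11 to 2.58 at 7 days, with no difference past the spread (exact permutation p = 0.657 for 3 days and 0.629 for 7 days against control, both 0.758 adjusted). Control liver 4 also had the highest level of Col2a1, the cartilage collagen (8.16 eRPKM, 54 reads, against at most 1.77 in the other livers), and the highest Col12a1 and Col5a2 of the control livers. It did not stand out for Col3a1.

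Col3a1, the chain of type III collagen, was 12.9, 9.45, 9.84 and 12.6 eRPKM in control, 21.3, 8.70, 9.17 and 12.2 at 3 days, and 10.9, 19.7 and 20.7 at 7 days. At 7 days a pair of livers lay above all controls and liver 1 lay among them. The log2 fold change was 0.55 with a 95% interval of -0.11 to 1.21 (adjusted p = 0.176), so that neither no change nor a doubling lay outside it. It was 0.76 with log2 depth in the model and 0.74 in female livers alone (adjusted p = 0.0903, limma). Over the 27 alternatives it ran from 0.16 to 0.83, without a call. The ratio of Col1a1 to Col3a1 was 1.08, 1.24 and 1.45 in control livers 2, 3 and 1, 4.81 in control liver 4, 0.992 to 1.60 at 3 days and 0.773 to 1.41 at 7 days. The difference in its log2 between 7 days and control was -0.81 with control liver 4 and -0.33 without it (exact permutation p = 0.229 and 0.300, the latter in a design of 3 against 3 livers that cannot go below 0.10).

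Type V collagen, which nucleates type I fibrils, did not pass the test in any of its 3 genes. Col5a1 was 3.02, 3.04, 3.15 and 2.71 eRPKM in control, 2.72, 1.84, 1.94 and 2.0 at 3 days, and 1.96, 3.42 and 3.34 at 7 days, with a log2 fold change of -0.06 at 7 days (95% interval -0.58 to 0.46, adjusted p = 0.870). Col5a2 was 2.78, 2.54, 1.80 and 4.87 eRPKM in control, 4.27, 1.53, 1.40 and 3.72 at 3 days, and 1.87, 4.26 and 5.07 at 7 days, with 0.26 (95% interval -0.66 to 1.17, adjusted p = 0.662). The Col5a2 value was 0.64 with log2 depth in the model, 0.59 in female livers alone and -0.40 with quantile normalization, without a call. For both genes, 7-day liver 1 was the low one at 7 days and the groups overlapped. Col5a3 was lower in each 7-day liver (1.12, 1.25 and 1.29 eRPKM) than in any control (5.36, 1.93, 2.02 and 4.35), and its log2 fold change of -1.08 ± 0.42 missed the threshold (adjusted p = 0.0611).

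Col27a1, a fibrillar collagen of cartilage, was likewise lower in each 7-day liver (1.76, 1.99 and 1.67 eRPKM) than in any control (2.69, 3.08, 2.93 and 3.85). At 3 days it was 2.68, 7.96, 3.81 and 2.12 eRPKM, with liver 2 far above the rest. The value against control at 7 days was -0.65 ± 0.34 (adjusted p = 0.157), with an exact permutation p of 0.0286. Col11a2, at 0.120 to 0.738 eRPKM in control and 0.612 to 1.34 at 7 days, overlapped between groups. No fibrillar gene was called higher under any of the 27 alternative settings tried in any of the 3 comparisons.

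**Figure D4:**
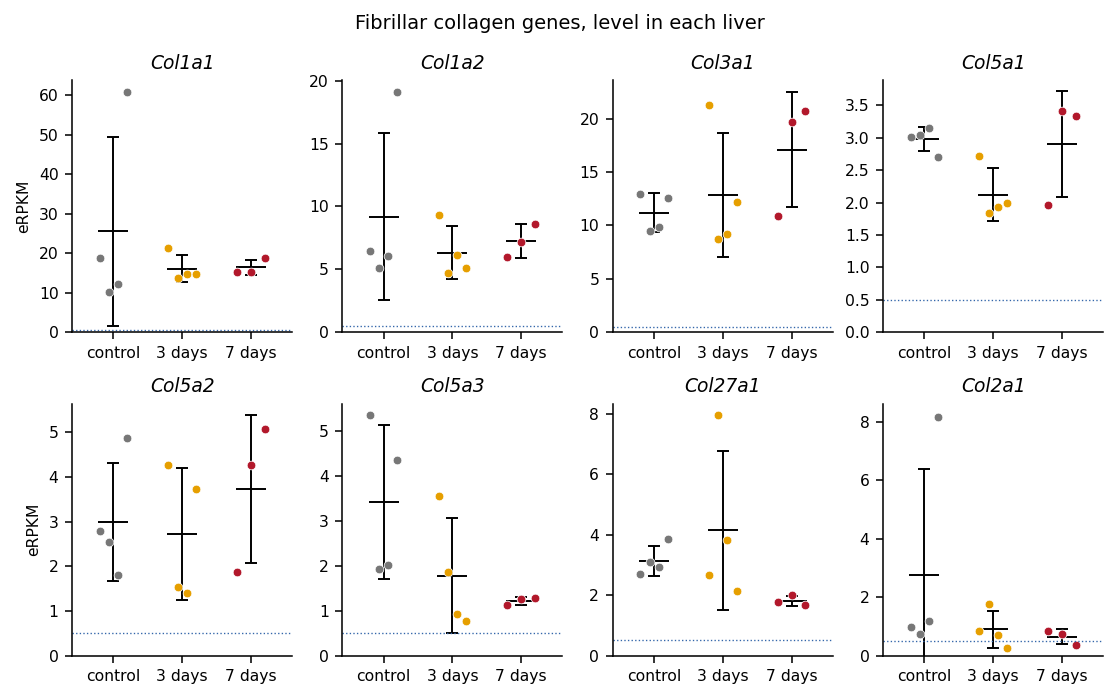
Level in eRPKM of 8 fibrillar collagen genes in each liver; points are livers, horizontal bars are means, whiskers are 1 SD (cut at 0 for Col2a1) and the dotted line is 0.5 eRPKM. The 7-day points of Col1a1, Col1a2 and Col5a1 do not separate from control, and control liver 4 is the high point of Col1a1 (60.8), Col1a2 (19.1) and Col2a1 (8.16).

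Among the other collagens, Col12a1 had the largest log2 fold change. It encodes a FACIT collagen that binds type I fibrils (chr9:79446798-79566638, - strand). It was 0.907, 1.33, 1.47 and 4.67 eRPKM in control and 1.57, 1.34, 1.27 and 1.56 at 3 days. At 7 days it was 13.9, 13.2 and 14.0 eRPKM, on 903 to 954 reads a liver. The highest control, liver 4, was still far below the lowest 7-day liver. Its log2 fold change was 2.65 ± 0.36 against control (6.27-fold, adjusted p = 0.00013, limma) and 2.88 ± 0.36 against 3 days (adjusted p = 0.0001). Against 3 days the exact permutation p was 0.0286, and against control it was 0.0571. The log2 fold change at 3 days was -0.23 ± 0.34 (adjusted p = 0.826), and 0.17 without control liver 4. Col12a1 and Col4a5 kept their calls at 7 days under all 27 alternatives, with log2 fold changes of 2.19 to 3.36 and 1.98 to 2.78 against control.

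Col14a1, another FACIT collagen that binds fibrils (chr15:55139305-55352358, + strand), went the other way. It was 17.2, 23.8, 18.5 and 9.52 eRPKM in control, 29.2, 14.4, 16.3 and 22.5 at 3 days, and 7.24, 8.59 and 8.47 at 7 days. Each 7-day liver was below every other liver, with control liver 4 the nearest. It fell by 1.25 ± 0.29 on the log2 scale against 3 days (adjusted p = 0.00641), and the value against control was -0.98 ± 0.29 (adjusted p = 0.0192), or -1.23 without control liver 4 (adjusted p = 0.00305). In female livers alone it was -1.32 (adjusted p = 0.00258). The call against 3 days was lost without any 1 of the 7-day livers (adjusted p = 0.0213 to 0.0289) and without 3-day liver 1 or 4. Those 3-day livers carry the label suffix MF and held 29.2 and 22.5 eRPKM, against 14.4 and 16.3 in the 3-day livers without it.

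Col16a1, a FACIT-type collagen with smaller fibril contacts, was 0.683, 1.72, 0.760 and 0.931 eRPKM in control, 1.87, 0.871, 0.678 and 1.31 at 3 days, and 1.77, 5.03 and 3.23 at 7 days. The 7-day livers ranged widely and the lowest almost touched the highest control. Its log2 fold change of 1.29 ± 0.36 did not pass (adjusted p = 0.0135).

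The multiplexins split. Col15a1, a collagen of the outer basement membrane zone (chr4:47221033-47326039, + strand), was 1.83, 2.06, 3.41 and 1.75 eRPKM in control, 0.685, 1.46, 1.98 and 0.793 at 3 days, and 0.511, 0.828 and 0.618 at 7 days. It was lower in each 7-day liver than in any control, and the 3-day livers spanned the gap. It fell by 1.23 ± 0.31 on the log2 scale at 7 days (adjusted p = 0.00822, limma), on 10 to 62 reads a liver. At 3 days the value was -0.70 ± 0.29 (adjusted p = 0.358). The call was lost under 12 of 27 alternatives, among them without any 1 of the 7-day or control livers (adjusted p = 0.0101 to 0.0381) and without 3-day liver 2 (adjusted p = 0.0113). It was also lost with log2 depth in the model (-1.32, adjusted p = 0.0321) and in female livers alone (-1.47, adjusted p = 0.0197). Col15a1 shares exon bases with Gm12426 on the other strand.

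Col18a1 (chr10:76514923-76629293, - strand), the collagen with the most RNA in these livers, was not called in any of the 3 comparisons. It was 121.5, 109.7, 145.3 and 132.5 eRPKM in control, 100.2, 104.8, 124.7 and 109.7 at 3 days, and 124.7, 121.0 and 134.1 at 7 days. The groups overlapped, and the log2 fold change at 7 days was -0.00 with a 95% interval of -0.31 to 0.31 (adjusted p = 0.997); under quantile normalization it was 0.46, and the gene was then called higher between 3 and 7 days. Its reads scaled with depth, from 1116 to 4847, a ratio of 4.34 beside 4.75 for all reads. Reads on Alb did not (2417 to 3102, a ratio of 1.28), and the eRPKM of Alb was highest in the shallowest library and lowest in the deepest.

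Type VI collagen, which forms beaded filaments near basement membranes, was read through Col6a1 and Col6a2. Col6a1 was 4.51, 4.97, 5.07 and 2.15 eRPKM in control, 4.49, 3.03, 2.98 and 3.31 at 3 days, and 5.19, 5.09 and 6.30 at 7 days, with a log2 fold change of 0.42 ± 0.28 (adjusted p = 0.261). Col6a2 was 1.78, 1.89, 2.31 and 1.98 eRPKM in control, 1.67, 1.19, 1.61 and 1.31 at 3 days, and 1.73, 2.22 and 2.26 at 7 days, with 0.05 ± 0.22 (adjusted p = 0.894). Both had their lowest group mean at 3 days, where neither passed the test. Their ratio was 1.09 to 2.63 in control and 2.29 to 3.00 at 7 days (exact permutation p = 0.314), with the 1.09 in control liver 4.

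Col23a1, a membrane-spanning collagen, was listed at 0.352, 0.218, 0.142 and 0 eRPKM in control, 0.0643, 0.236, 0.419 and 0.140 at 3 days, and 0.704, 1.18 and 0.775 at 7 days. It passed the filter on low values through the 7-day livers alone, so that a difference was built into its entry. Its call at 1.04 ± 0.27 (adjusted p = 0.00918) rested on 22 to 41 reads per 7-day liver against 0 to 8 in controls, and it was lost under 18 of 26 alternatives. Against 3 days it was 0.96 ± 0.27 (adjusted p = 0.0159). The remaining tested collagens (Col8a1, Col8a2, Col10a1, Col13a1, Col17a1 and Col20a1) were between 0 and 4.58 eRPKM in every liver, and none was called.

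**Figure D5:**
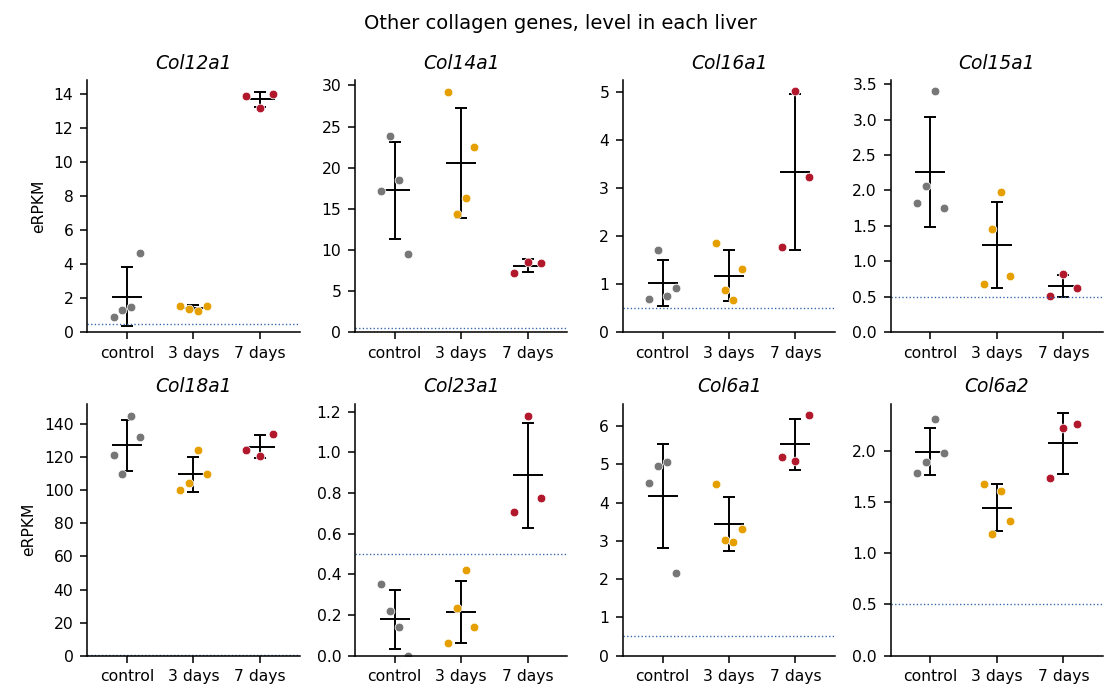
Level in eRPKM of 8 other collagen genes in each liver; points are livers, horizontal bars are means, whiskers are 1 SD and the dotted line is 0.5 eRPKM. Col12a1 rises to 13.2 to 14.0 at 7 days, Col14a1 and Col15a1 lie below every control, and Col18a1 stays between 100.2 and 145.3.

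Some genes for proteins that make and mature collagen changed at 7 days. Of 20 genes for folding and modification, 6 were called higher at 7 days and 1 lower (median log2 fold change 0.51, beside 0.26 over all genes, of which 18.0% were called higher and 5.77% lower). P4ha2, a subunit of prolyl 4-hydroxylase, rose by 2.17, P3h2, a prolyl 3-hydroxylase that acts on type IV collagen, by 1.92, Plod1, a lysyl hydroxylase, by 1.46, and Crtap, of the prolyl 3-hydroxylase complex, by 1.41 on the log2 scale (adjusted p = 2.1e-05, 0.00045, 0.00011 and 0.00021, limma). Mia3, which loads collagen into export vesicles, fell by 0.70 (adjusted p = 0.00421), a call lost under 6 of 27 alternatives. Serpinh1, the collagen chaperone HSP47, was not called, at 12.2, 13.1, 9.24 and 16.5 eRPKM in control and 13.8, 19.5 and 19.7 at 7 days.

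Of 15 genes for maturation and crosslinking, 12 were tested and 5 were called higher, with a median of 0.82, where 18.0% of all genes were called higher. Pcolce, an enhancer of procollagen C-proteinase, went from 4.04, 6.07, 6.29 and 1.01 eRPKM in control to 32.0, 51.7 and 39.3 at 7 days (3.28 on the log2 scale, adjusted p = 0.00011). Pcolce2, its relative, rose by 2.34 (adjusted p = 4e-05), Adamts2, the procollagen N-proteinase, by 2.18 (adjusted p = 0.00017) and the transglutaminase Tgm2 by 1.37 (adjusted p = 0.00038). None of 9 fibril-binding proteins was called (median -0.19). Of 9 tested collagen receptors, 2 were called higher (median 0.16), a share near the 18.0% of all genes: the receptor kinase Ddr1 at 2.09 (adjusted p = 0.00039) and the leukocyte receptor Lair1 at 2.0 (adjusted p = 4e-05).

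A list of signals covered the signalling that drives collagen production, with ligands, receptors and Smad genes, Smad7 included. In it 7 of 15 genes were called higher at 7 days and none lower (median 0.87), beside 18.0% and 5.77% of all genes. Tgfb2, among the 7, passed the filter only with the 7-day livers, where it was high. Its place in this count and in the count against 3 days is thus a description. Ctgf, a YAP target, rose by 3.49, Tgfb1 by 2.50, and the platelet-derived growth factor genes Pdgfa and Pdgfb by 2.42 and 2.25 on the log2 scale (adjusted p = 1.2e-05, 4.1e-05, 0.00024 and 0.00137). At 3 days no gene of these 5 lists was called. Between 3 and 7 days the counts called higher were 6 for folding and modification, 5 for maturation, 0 for fibril-binding proteins, 2 for receptors and 8 for signals, with none lower, where 14.0% and 5.31% of all genes were called.

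Markers of the cells that could supply collagen RNA moved in different directions. Their counts stand beside the 18.0% of all tested genes called higher and 5.77% lower at 7 days. The 8 stellate cell markers summed to 77.4 to 147.6 eRPKM in control, 97.8 to 169.9 at 3 days and 55.4 to 69.1 at 7 days, and 2 of them fell at 7 days, Reln by 1.22 and Rgs5 by 0.99 on the log2 scale (adjusted p = 0.00374 and 0.00537), calls lost under 4 and 6 of 27 alternatives. The 6 myofibroblast markers summed to 22.6 to 44.4, 18.7 to 35.5 and 29.7 to 39.9 eRPKM. Of the 5 tested, 1 was called higher (Timp1, 1.69, adjusted p = 0.00513, lost under 10 of 26 alternatives), a share near the 18.0% of all genes. Timp1 passed the filter only with the 7-day livers. Acta2 overlapped between groups, and Cthrc1 was at 0 in the control and 7-day livers. The 6 portal fibroblast markers summed to 3.70 to 8.38, 4.55 to 7.60 and 16.3 to 21.2 eRPKM, with 2 called higher, Eln by 1.56 and Cd34 by 1.95 (adjusted p = 0.00096 and 0.0006), both of which other cells express too.

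The other marker lists are given by their sums in control, 3-day and 7-day livers, and their counts stand beside the 18.0% of all genes called higher and 5.77% lower. Sinusoidal endothelial markers were 111.6 to 195.6, 132.1 to 240.1 and 176.3 to 217.1 eRPKM (2 of 6 called higher at 7 days against control), cholangiocyte markers 37.6 to 49.1, 40.5 to 84.7 and 61.6 to 111.7 (1 of 5 tested called higher), and Kupffer cell markers 157.1 to 336.7, 194.7 to 374.1 and 606.8 to 633.7 (4 of 5 called higher). In the endothelial list Clec4g had a log2 fold change of -0.77 (adjusted p = 0.0409), opposite to the 2 called, Stab1 and Lyve1. Hepatocyte markers were 1342 to 3938, 1618 to 1984 and 963.1 to 1083 eRPKM, with 3 of 6 called lower. The summed levels of the Kupffer, portal fibroblast and cholangiocyte lists at 7 days lay above the control range, and those of the stellate and hepatocyte lists lay below it. Most of the cholangiocyte sum was Spp1 (49.9, 96.2 and 56.2 eRPKM at 7 days), which was not called. Cd34 and Eln made up most of the portal fibroblast sum, and Thy1, Fbln2, Msln and Upk1b of that list were not called. Depth moved with part of the hepatocyte list. Control liver 2, the deepest control, held 267.7 eRPKM of Alb and 254.8 of Apoa1. These lay within or near the 234.3 to 258.1 and 243.6 to 277.5 eRPKM of the 7-day livers, and Cps1 was near too (202.2 against 163.5 to 195.3). The 3 markers called lower were further off in that liver. Ttr was 172.6 eRPKM against 96.3 to 103.8 at 7 days, Tat 206.0 against 134.4 to 153.4 and Cyp2e1 239.0 against 91.0 to 108.3. The part of these changes in the collagen results was not tested.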

How the data were processed

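Total RNA of 11 homogenized mouse livers was sequenced from TruSeq v2 libraries. The authors aligned paired reads to mm9 with TopHat2 2.0.8, and the submitters' processing notes name featureCounts 1.4.5-p1, SAMtools and DESeq2; counting ignored strand, and the annotation is not given in the sources used here. The authors deposited exonic RPKM values (eRPKM) per liver. The deposited table also holds the authors' comparison of 7 days and control: a mean signal after normalization, log2 ratios and p-values after adjustment, none of which was used.

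Whole reads were recovered from the steps of the deposited RPKM values (100.00% of 177553 values above 0 within 0.1 read) and give the depth, 1251396 to 5941357 reads on genes. Genes with at least 0.5 eRPKM in 3 or more livers (14244) were fitted on log2(eRPKM + 0.5) by linear models of the 3 groups together in limma 3.58.1, run in R 4.3.3, with trended eBayes moderation and Benjamini-Hochberg adjustment; a call needs an adjusted p under 0.01 and a log2 fold change beyond 0.5. Single genes and chain ratios were tested by exact two-sided permutation tests, whose smallest p is 0.0286 here, or 0.100 for 3 against 3 livers. The script was tested on simulated data. Errors are SE or SD as stated; intervals are 95%. The labels do not name the animals, so p-values measure the spread between these libraries.

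The collagen genes and all lists were chosen with earlier results of these data known. Named with log2 fold changes are the main chains of types I, III, IV, V, VI, XIV, XV, XVIII and XXVII and every collagen called; Col5a3, Col16a1, Col2a1 and Col11a2 were added after their values were seen. Of other lists at most 4 called genes per direction are named. Alternatives were another pseudocount, filter, scaling, variance model, threshold or covariate, a replicate block, limma-voom on the recovered reads, female livers alone and each library left out; leaving out control liver 4 and 3-day liver 3 together was chosen after seeing the data.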

Additional observations from a re-analysis of the deposited data

Results flagged for a closer look

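In 7 of the 36 groups of 4 livers examined, 1 liver lay far from the rest of its group by Dixon's criterion, which chance passes in about 1 of 20 groups. The groups are the same control and 3-day livers read in 18 genes, so they are not independent and the 7 are not separate outliers. Control liver 4 was high for Col1a1 (60.8 eRPKM, others 10.2 to 18.8), Col1a2 (19.1, others 5.13 to 6.42) and Col12a1 (4.67, others 0.907 to 1.47) and low for Col4a2 (4.35, others 8.25 to 8.66). At 3 days, liver 1 was high for Col1a1 (21.2, others 13.8 to 14.6) and liver 3 was high for Col4a3 (5.03, others 0.584 to 0.661) and Col4a4 (2.13, others 0.137 to 0.338).

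The change at 7 days differed from that at 3 days, both against the same controls, in 6 collagen genes by the direct limma comparison of 7 with 3 days. The log2 differences were 3.00 for Col4a5, 2.88 for Col12a1, 2.12 for Col4a3, 1.98 for Col4a4, 1.07 for Col4a2 and -1.25 for Col14a1.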

How the results depend on the processing

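Col12a1 and Col4a5 kept their direction and call at 7 days under each of 27 alternatives, and no fibrillar gene was called higher under any of them. Against control, 6 collagens were called higher and 1 lower. With log2 depth as a covariate these counts became 2 and 0, with type IV at 1, and in female livers alone 3 were higher, with type IV at 2. The count called lower was 0 with no filter on low values, 2 with median-ratio size factors, with limma-voom, without control liver 4 and 3-day liver 3, and at adjusted p under 0.05 with any fold change, and 3 with quantile normalization. With 1 library left out, 3 to 6 were higher, 0 to 1 lower, 2 to 4 of type IV higher and 1 to 2 of the others. The other collagens called higher numbered 1 in place of 2 with a pseudocount of 0.1, a mean of at least 1 eRPKM, either rescaling, the 2 compared groups only, robust eBayes, the replicate block, the label suffix or depth as a covariate, female livers, or both libraries that stand apart left out.

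Between 7 and 3 days, 5 were called higher and 1 lower. The first count was 3 with no filter, median-ratio factors, quantile normalization, the 2 groups only or the block, and 2 with depth or female livers; the second was 2 with quantile normalization and 0 with the block. Type IV genes called higher went from 4 to 2 with no filter, median-ratio factors, the 2 groups only or the block, and to 1 with quantile normalization, depth or female livers. The others went from 1 to 2 with quantile normalization, eBayes without trend, the suffix, limma-voom or both libraries left out, and to 3 at adjusted p under 0.05. With 1 library left out the counts were 2 to 5, 0 to 1, 1 to 4 and 1 to 2.

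Same-numbered livers did not deviate together (correlations -0.222 to 0.269), so the replicate block, which left 4 higher and 1 lower against control, is given only here. Signs turned only in genes without a call. Col1a1 at 7 days became 0.00 with the block, 0.75 with depth, 0.53 in female livers and 0.29 without control liver 4 (0.29 without both libraries). Col1a2 became 0.03, 0.68, 0.34 and 0.28 (0.28), and 0.01 with limma-voom. Col5a1 was 0.16 without 7-day liver 1. Col5a2 was -0.40 with quantile normalization and -0.03 with the suffix. Col18a1 was 0.46 with quantile normalization, 0.01 with the block, 0.04 with the suffix, 0.10 with depth, 0.00 in female livers, 0.01 with limma-voom and 0.02 without both libraries. Col6a1 was -0.27 with quantile normalization. Col6a2 was -0.17 with median-ratio factors, -0.55 with quantile normalization, -0.02 in female livers and -0.01 without 7-day liver 3. At 3 days Col4a3 was -0.35 without 3-day liver 3 and -0.57 without both libraries, Col4a4 -0.22 and -0.34, and Col12a1 0.01 in female livers, 0.17 without control liver 4 and 0.21 without both. With each library left out in turn, the ranges were -0.55 to 0.29 for Col1a1, -0.32 to 0.28 for Col1a2, -0.18 to 0.16 for Col5a1, -0.07 to 0.07 for Col18a1 and -0.01 to 0.14 for Col6a2 at 7 days, and -0.35 to 0.43 for Col4a3, -0.22 to 0.46 for Col4a4 and -0.46 to 0.17 for Col12a1 at 3 days. The causes were not tested. Depth limits genes under 0.5 eRPKM, which rest on few reads.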
